A study of Mus musculus with 4 samples.

Results

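The genes described here are 44 mouse genes of the interferon response and of antigen presentation, chosen by symbol from a deposited count table of 23874 genes, in which all 44 were found. They comprise interferon receptors, transcription factors, RNA sensors and regulators, antiviral effectors, interferon-induced GTPases, and genes that make and load the peptides of class I major histocompatibility complex (MHC) molecules. RNA was sequenced from engineered neural tissue (ENT), in which neurospheres, floating clusters of neural stem cells, were set in Matrigel, a basement membrane gel. Both groups were grown in DMEM/F12 with N2, B27 and 20 ng/ml recombinant human bFGF. Tissue of the EF group was stimulated at 150 mV/mm, 30 min per day, on 3 days and then kept in culture for another 7 days, and noEF tissue was left unstimulated. There were 2 libraries in each group, whereas the treatment text states 3 replicates. Strain and age of the mice are not given. No label says whether libraries of a group were separate cultures, and the p-values below therefore measure the spread between these libraries, which may be technical. The series text calls the control a suspension of neural stem cells and the sample labels call it engineered tissue; the sample labels were followed.

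Type I interferons bind a receptor built of IFNAR1 and IFNAR2, and type II interferon binds IFNGR1 and IFNGR2. Kinases on these receptors activate STAT proteins: a complex with STAT2 and IRF9 binds the interferon-stimulated response element (ISRE) of target promoters, and STAT dimers bind the gamma-activated site (GAS). The targets include antiviral proteins and the class I machinery, and astrocytes, microglia and neural progenitors can all respond.

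Library totals were 33748880 to 34554537 counts, and the biological coefficient of variation over genes was 0.161. Values below are CPM, counts scaled by library size. Of the neural stem cell markers Nes averaged 125 CPM and Sox2 337 CPM. At an adjusted p under 0.05, 1 of the 10 in that list was higher in EF (Mki67) and 3 lower (Fabp7, Sox9 and Sox1). Beside these and the marker counts below, 3.83% of all genes tested were higher and 4.99% lower at that threshold. By direction alone 4 of the 10 were higher in EF and 6 lower. The list summed to 5223 and 5534 CPM in EF and 7022 and 6654 CPM in noEF. Fabp7 and Vim made up most of this, with means of 2365 and 2234 CPM in EF and 3355 and 2609 CPM in noEF. Among 14 microglia and macrophage markers 10 had 0 counts in every library, Cx3cr1, Csf1r, Ptprc and Itgam among them. Of 8 leukocyte markers 7 had 0 counts in every library, and the remaining marker summed to 8 counts, all in EF 2. Endothelial markers summed to 4.26 and 3.47 CPM in EF and 1.91 and 2.26 CPM in noEF, and 0 of 3 tested passed. Of 5 fibroblast and pericyte markers tested, only Acta2 passed, higher in EF. By direction alone 3 of the 5 were higher in EF and 2 lower. Pdgfrb, among the latter, had 0 counts in both EF libraries, against 10 and 13 counts in noEF. The list summed to 83.0 and 87.8 CPM in EF and 80.3 and 75.1 CPM in noEF. Most of this was Cspg4, which did not pass, with means of 77.6 CPM in EF and 73.1 CPM in noEF. Over the 4 libraries Acta2 averaged 4.89 CPM and Rgs5 0.841 CPM. Col1a1, Col3a1, Dcn and Pdgfrb averaged 0.227, 0.0294, 0.0372 and 0.173 CPM, and Lum had 0 counts in every library. Of 8 astrocyte markers 4 were lower in EF (Gfap, Aqp4, Aldoc and Gja1) and 0 higher. Gfap averaged 239 CPM in EF and 656 CPM in noEF. The list summed to 5570 and 5302 CPM in EF and 6102 and 6322 CPM in noEF. Slc1a3, the largest part of these sums, lay in the other direction without passing, with means of 2862 CPM in EF and 2561 CPM in noEF. In the oligodendrocyte lineage list 2 of 7 tested markers, Gpr17 and Pdgfra, were lower in EF and 0 higher, with sums of 2384 and 2721 CPM in EF and 2503 and 2356 CPM in noEF. In the neuron list 0 of 7 passed, with sums of 704 and 681 CPM in EF and 589.8 and 660.3 CPM in noEF. Fewer cells of a type and less RNA per cell cannot be told apart in bulk RNA, and the part of these markers in the values below was not tested.

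The comparison of EF with noEF shows whether these genes differed 7 days after the last stimulation. Cxcl10, which encodes a chemokine that attracts T cells, and Gbp3, which encodes a guanylate-binding GTPase, were higher in EF at an adjusted p under 0.05, by 1.73-fold and 1.42-fold. Of the 44 genes 41 had enough counts for edgeR's quasi-likelihood test, so 2 were called higher, 0 lower and 39 did not pass. Over all 14263 genes tested 3.83% were called higher and 4.99% lower, and the members' 2 of 41 is near that share. DESeq2 and limma-voom also called Cxcl10 and Gbp3 higher and 0 members lower, beside 4.04% and 3.96% of all genes higher and 5.97% and 5.18% lower. At an unadjusted p under 0.05, 4 members were higher and 4 lower, against 11.3% and 12.5% of all genes. The median log2 fold change (EF minus noEF) of the tested members was 0.14, beside 0.01 over all genes. By direction 25 members lay above 0 and 16 below, so 61.0% were above 0, beside 51.1% of all genes tested. The members' median was 0.023 without EF 1, 0.15 without EF 2, 0.062 without noEF 1 and 0.030 without noEF 2. The groups did not overlap in CPM for 12 members with EF above noEF and 9 with EF below, against 27.6% and 26.8% of all genes.

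These counts rest on single libraries. Without EF 1 only Cxcl10 was called higher (1.47% of all genes), without EF 2 no member (2.86%), without noEF 1 only Cxcl10 (2.8%), and without noEF 2 Cxcl10, Gbp3 and Gbp7 (5.35%). After removal of each library's trend on gene length and GC content, 5 members were called higher, namely Cxcl10, Gbp3, Bst2, H2-D1 and Ifi27, and 0 lower, beside 4.19% and 6.19% of all genes. Scaling by library totals instead of TMM turned 546 higher and 712 lower genes into 1138 higher (7.98%) and 505 lower (3.54%), and added H2-D1 to the members called higher.

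**Figure D1:**
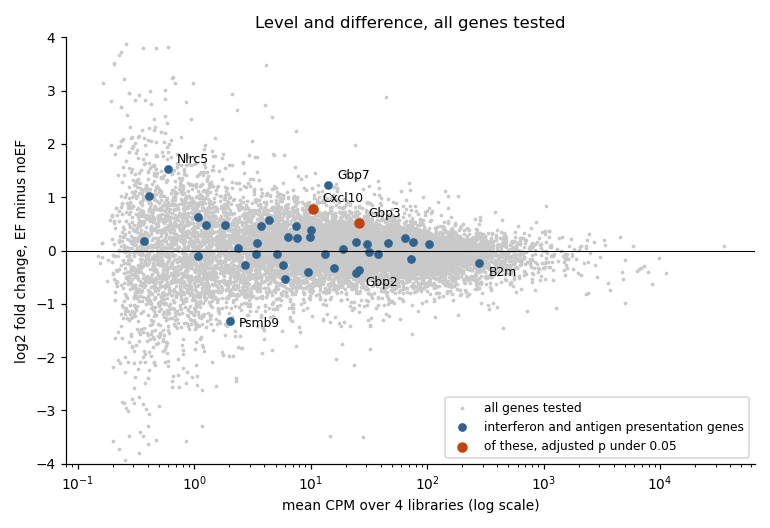
Mean CPM over the 4 libraries (x axis, log scale) against log2 fold change, EF minus noEF (y axis), for all 14263 genes tested (grey) and the 41 tested interferon and antigen presentation genes (blue; orange where the adjusted p was under 0.05). Cxcl10 at 0.79 and Gbp3 at 0.51 are the called members; genes beyond 4 on the y axis are not drawn.

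Levels differed far more between genes than between groups. Per kilobase of annotated exon, B2m, the light chain of class I molecules, was highest with a mean of 327 CPM per kb. The class I heavy chain gene H2-K1 followed at 35.4, then Ifi27 at 31.3 and the heavy chain gene H2-D1 at 25.3 CPM per kb. Values of H2-K1 and Ifi27 overlapped across libraries, but within each of the 4 libraries H2-K1 was the higher. In EF 1, EF 2, noEF 1 and noEF 2 it had 36.7, 37.2, 36.0 and 31.8 CPM per kb. Ifi27 had 32.4, 33.4, 31.3 and 28.1 CPM per kb in the same order, above H2-D1 in each library. These gaps rest on the annotated exon lengths. Psmb10, Tapbp and the receptor gene Ifnar1 came next, the last at 12.7 CPM per kb. Other well-known antiviral genes were spread over all the ranks below these, down to the lowest. Gbp2 ranked 9, Bst2 11, Ifit3 17 and Ifit2 18 of 44, and Isg15, a ubiquitin-like modifier, ranked 25. Ifit1 was at 0.140 and the GTPase gene Iigp1 at 0.0387 CPM per kb. Mx1 had 0 and 3 counts in EF and 0 and 2 counts in noEF, and Oas1a had 3 and 0 counts in EF and 0 in both noEF libraries. A count of 0 allows up to 3 counts, or 0.0840 to 0.0922 CPM per library, so no fold is given for these. With Iigp1, which had 10 and 8 counts in EF, against 6 and 7 counts in noEF, they are the 3 members left out of the test.

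**Figure D2:**
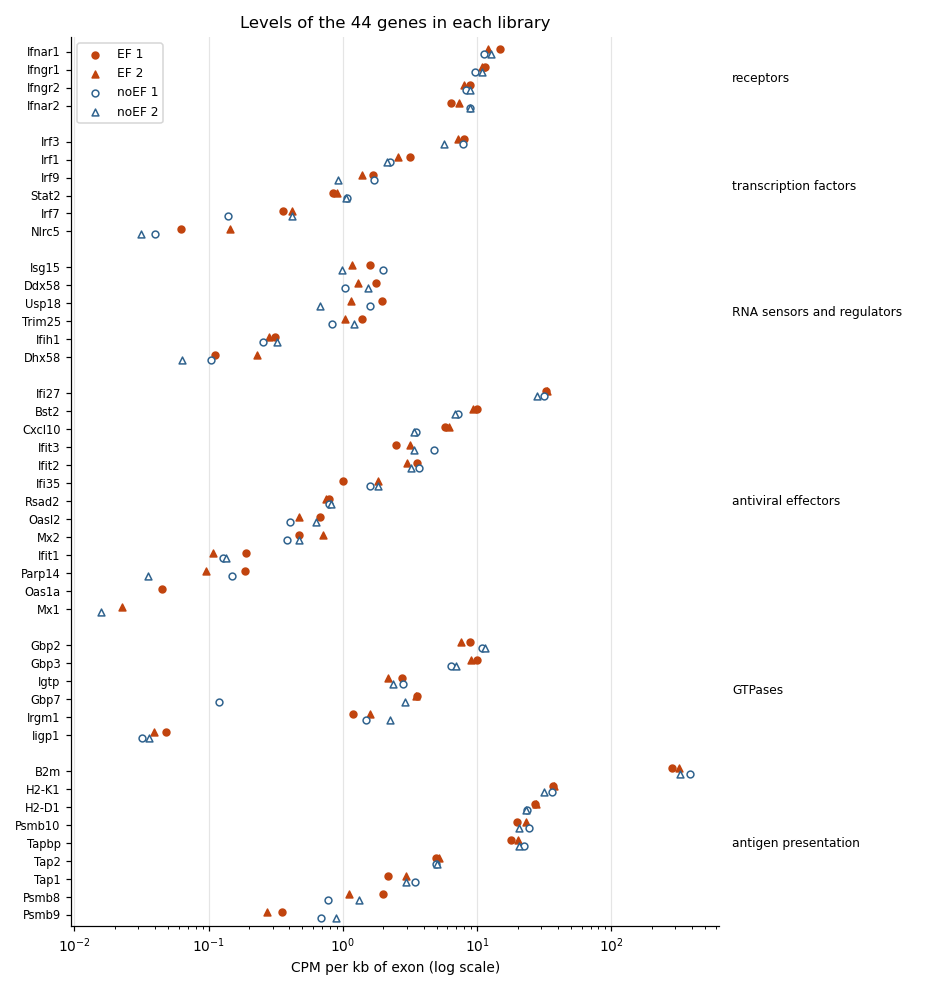
Level of each of the 44 genes in CPM per kb of exon (x axis, log scale) in EF 1, EF 2, noEF 1 and noEF 2 (filled orange and open blue symbols), by role; libraries at 0 counts are not drawn. B2m is highest at a mean of 327, Mx1 and Oas1a are lowest, and noEF 1 stands apart for Gbp7.

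The 10 interferon genes that were looked up gave no counts. Ifnb1, Ifna1, Ifna2, Ifna4, Ifna5, Ifne, Ifnk, Ifng, Ifnl2 and Ifnl3 were at 0 in every library, which allows up to 0.0922 CPM. Any other interferon genes were not examined. All 4 receptor genes were expressed and 0 passed. Ifnar1, a chain of the type I receptor, had 87.7 and 71.2 CPM in EF, against 67.0 and 76.0 CPM in noEF. The groups overlapped (log2 fold change 0.15, SE 0.115, edgeR adjusted p = 0.467). Ifnar2, its partner chain, had 21.2 and 24.6 CPM in EF, against 29.5 and 29.5 CPM in noEF. Both EF libraries lay below both noEF libraries, but the difference did not pass (log2 fold change -0.37, SE 0.138, edgeR adjusted p = 0.111; 95% interval, not adjusted, -0.66 to -0.075). Ifngr1, the ligand-binding chain for type II interferon, had 32.7 and 30.8 CPM in EF, against 27.7 and 30.7 CPM in noEF, with EF 2 and noEF 2 almost equal (log2 fold change 0.12, SE 0.130, edgeR adjusted p = 0.633). Ifngr2, the second chain, was level at a log2 fold change of -0.026.

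Of the 6 transcription factors 0 passed and 5 had a log2 fold change above 0, as did 51.1% of all genes tested. Stat2 had 5.04 and 5.36 CPM in EF, against 6.36 and 6.21 CPM in noEF. Both EF values lay below noEF, with an interval that spans 0 (log2 fold change -0.27, SE 0.243, edgeR adjusted p = 0.546; 95% interval, not adjusted, -0.79 to 0.24). Irf9, the DNA-binding partner of STAT2, had 9.10 and 7.51 CPM in EF, against 9.25 and 4.97 CPM in noEF. Here the noEF libraries enclosed the EF values (log2 fold change 0.23, SE 0.279, edgeR adjusted p = 0.685; 95% interval, not adjusted, -0.38 to 0.83).

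Irf1, an early target of type II interferon and of NF-kappaB, had 12.5 and 10.2 CPM in EF, against 8.97 and 8.47 CPM in noEF. The groups did not overlap, yet the difference did not pass (log2 fold change 0.38, SE 0.194, edgeR adjusted p = 0.252). Irf3, which is activated by RNA and DNA sensing, had 27.5 and 24.6 CPM in EF, against 27.0 and 19.5 CPM in noEF, and the groups overlapped (log2 fold change 0.16, SE 0.163, edgeR adjusted p = 0.604). Exons of Irf3 share 88 bases with Bcl2l12 on the other strand and those of Irf9 share 123 bases with Rnf31 on the same strand, so their reads may be mixed. Irf7, which amplifies the type I response, had 1.34 and 1.58 CPM in EF, against 0.522 and 1.58 CPM in noEF, with noEF 1 as the low library. Exons of Irf7 share 45 bases with Phrf1 on the other strand, which had 4280 counts over the 4 libraries. Reads of Irf7 may thus be mixed too. Nlrc5, the transactivator of class I genes, had 19 and 43 counts in EF, against 11 and 9 counts in noEF. Both EF libraries lay above noEF, but at these counts the interval ran from -0.32 to 3.38 (log2 fold change 1.53, SE 0.868, edgeR adjusted p = 0.309).

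The 6 RNA sensors and regulators gave 0 calls. Ddx58, which encodes the RNA sensor RIG-I, had 12.5 and 9.08 CPM in EF, against 7.28 and 10.9 CPM in noEF, with overlap (log2 fold change 0.25, SE 0.232, edgeR adjusted p = 0.578). Dhx58, a related helicase that regulates RIG-I and MDA5, had 13 and 26 counts in EF, against 11 and 7 counts in noEF (log2 fold change 1.01, SE 0.968, edgeR adjusted p = 0.583). Usp18, a protease that removes ISG15 and damps receptor signalling, had 5.46 and 3.18 CPM in EF, against 4.42 and 1.87 CPM in noEF. Replicate 1 was the higher library in both groups (log2 fold change 0.46, SE 0.425, edgeR adjusted p = 0.575), and the direction turned to -0.036 without noEF 2. Isg15 had 1.20 and 0.888 CPM in EF, against 1.51 and 0.743 CPM in noEF, again higher in replicate 1. Ifih1, which encodes MDA5, and Trim25, a ubiquitin ligase that acts on RIG-I, had log2 fold changes of 0.041 and 0.25.

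Of the 13 antiviral effectors 11 were tested: Cxcl10 was higher, 0 were lower and 10 did not pass. Cxcl10 (ENSMUSG00000034855; GRCm38 chromosome 5, 92346638 to 92348889) had 462 and 484 counts in EF, against 258 and 256 counts in noEF. In CPM these are 12.9 and 13.9 in EF and 7.93 and 7.61 in noEF, each pair close and the groups well apart. The EF mean was 13.4 ± 0.656 CPM (SD, n = 2) and the noEF mean 7.77 ± 0.223 CPM (SD, n = 2), which gave 1.73-fold (log2 fold change 0.79, SE 0.185, edgeR adjusted p = 0.0164). The call held in 12 of 13 alternatives and was lost without EF 2, at 0.74 (edgeR adjusted p = 0.0561; range over alternatives 0.0018 to 0.0561). Cxcl10 shares 133 exon bases with Art3 on the opposite strand, which had 141 counts over the 4 libraries. Of its relatives, Cxcl9 had 2 counts, both in EF 2, and Cxcl11 had 0.

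**Figure D3:**
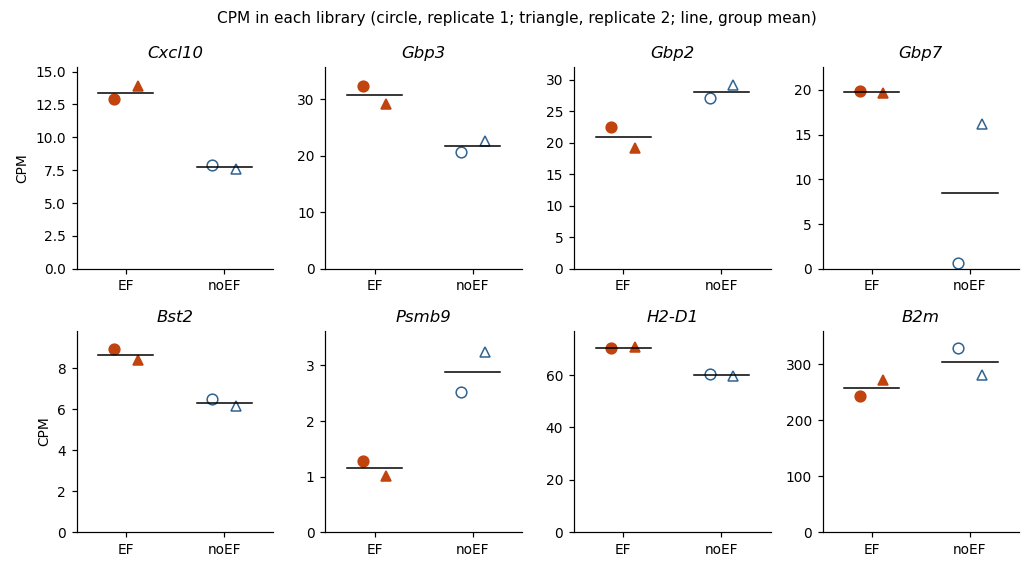
CPM in each library (y axis, from 0) for 8 genes in EF (orange, left) and noEF (blue, right); circles are replicate 1, triangles replicate 2, and lines group means. Cxcl10 and Gbp3 lie higher in both EF libraries, Gbp2, Psmb9 and B2m lower without a call, and Gbp7 is low in noEF 1.

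Promoter sequences are shown for the called pair and for Gbp2 and Gbp7, the neighbours of Gbp3, because ISRE, GAS and kappaB elements are where interferon and NF-kappaB act on such genes. RefSeq windows on GRCm38.p6, from 250 bases before to 50 after a start site, matched 35 of the 44 members by symbol; Dhx58, Ifi27, Iigp1, Mx1, Mx2, Nlrc5, Parp14, Tap2 and Usp18 did not match. ISRE cores were searched as GAAANNGAAA and GAS as TTCNNNGAA on both strands, beside the kappaB consensus, with overlapping matches allowed. An ISRE core was found for 16 of the 35 members (45.7%) and 3.99% of all 27025 genes with a window. GAS was found for 10 members (28.6%) and 9.55% of all genes, and kappaB for 7 members (20.0%) and 5.14% of all genes. Capitals mark the matches, 5′ to 3′ on the strand of the gene.
Cxcl10 (chr5:92348840-92349139, minus strand): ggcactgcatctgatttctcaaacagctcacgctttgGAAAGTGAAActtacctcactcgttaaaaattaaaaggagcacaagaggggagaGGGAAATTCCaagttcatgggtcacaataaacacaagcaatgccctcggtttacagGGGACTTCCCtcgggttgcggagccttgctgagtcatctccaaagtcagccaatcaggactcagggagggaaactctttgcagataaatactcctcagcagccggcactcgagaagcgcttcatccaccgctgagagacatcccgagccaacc
Gbp3 (chr3:142559794-142560093, plus strand): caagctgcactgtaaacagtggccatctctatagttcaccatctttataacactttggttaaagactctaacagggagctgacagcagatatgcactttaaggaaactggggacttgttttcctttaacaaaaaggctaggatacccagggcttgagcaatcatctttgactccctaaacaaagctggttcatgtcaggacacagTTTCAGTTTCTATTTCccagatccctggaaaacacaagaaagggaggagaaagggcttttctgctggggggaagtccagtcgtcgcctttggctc
Gbp2 (chr3:142620413-142620712, plus strand): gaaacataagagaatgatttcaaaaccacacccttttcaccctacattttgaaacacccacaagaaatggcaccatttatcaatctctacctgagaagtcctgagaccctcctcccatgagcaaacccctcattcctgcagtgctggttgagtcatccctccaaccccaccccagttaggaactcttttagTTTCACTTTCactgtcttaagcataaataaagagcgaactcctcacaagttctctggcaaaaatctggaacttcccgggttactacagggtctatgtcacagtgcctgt
Gbp7 (chr3:142530086-142530385, plus strand): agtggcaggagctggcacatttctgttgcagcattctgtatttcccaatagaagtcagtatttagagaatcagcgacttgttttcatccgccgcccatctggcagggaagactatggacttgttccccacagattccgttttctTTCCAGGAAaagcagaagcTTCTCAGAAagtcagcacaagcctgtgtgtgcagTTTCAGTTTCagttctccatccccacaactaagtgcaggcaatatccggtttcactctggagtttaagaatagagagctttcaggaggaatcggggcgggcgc
With the start site at position 0, Cxcl10 held an ISRE core at -213 to -204 and kappaB matches at -159 to -150 and -103 to -94. Gbp3 held overlapping ISRE cores at -45 to -36 and -39 to -30, and a second RefSeq window of Gbp3 held no match. Gbp2 held an ISRE core at -59 to -50, and Gbp7 held an ISRE core at -53 to -44 and GAS matches at -106 to -98 and -87 to -79. Of the 15 tested members with an ISRE core 2 were called higher and 7 lay above 0, with a median log2 fold change of -0.062. Of the 19 tested members whose windows held none, 0 were called and 11 lay above 0, with a median of 0.13. Over all genes tested 3.83% were called higher. With so few genes these counts cannot tell the sets with and without an ISRE core apart, and a link of the element to the calls was not tested.

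Bst2, which encodes tetherin, a protein that holds budding virus at the cell surface, had 8.96 and 8.40 CPM in EF, against 6.51 and 6.16 CPM in noEF. The groups did not overlap, but the difference did not pass (log2 fold change 0.45, SE 0.212, edgeR adjusted p = 0.208), whereas with the length and GC trend removed it was 0.83 (edgeR adjusted p = 0.0258). Ifi27 had 47.6 and 49.0 CPM in EF, against 45.9 and 41.2 CPM in noEF (log2 fold change 0.15, SE 0.114, edgeR adjusted p = 0.471), and 0.38 with the trend removed (edgeR adjusted p = 0.0253). Ifit3, of a family that binds viral RNA, had 4.37 and 5.47 CPM in EF, against 8.39 and 5.95 CPM in noEF. Both EF libraries were below noEF without a call (log2 fold change -0.54, SE 0.260, edgeR adjusted p = 0.223). Ifit3 shares 51.2% of its 50-base words with its near copy Ifit3b, so their counts are uncertain; Ifit3b was at -0.59 (edgeR adjusted p = 0.192). Ifit2 and Rsad2, which encodes the antiviral enzyme viperin, were at -0.066 and -0.062. Ifi35, Ifit1, Oasl2, Mx2 and Parp14 ranged from -0.27 to 0.62.

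The GTPase genes Gbp7, Gbp3 and Gbp2 lie in that order on chromosome 3 between 142530342 and 142638008, and encode proteins that act on the vacuoles of intracellular microbes. Of 5 GTPase genes tested Gbp3 was higher and 0 were lower. Gbp3 (ENSMUSG00000028268; 142560026 to 142573209) had 1156 and 1019 counts in EF, against 674 and 758 counts in noEF. The EF mean was 30.8 ± 2.25 CPM (SD, n = 2) and the noEF mean 21.6 ± 1.29 CPM (SD, n = 2), which gave 1.42-fold (log2 fold change 0.51, SE 0.137, edgeR adjusted p = 0.0313). Both EF libraries lay above both noEF libraries. The call held in 8 of 13 alternatives and was lost without EF 1 (edgeR adjusted p = 0.234), EF 2 (0.0517) or noEF 1 (0.125), with a replicate block (0.0559) and with that block and the length and GC trend removed (0.0714), over a range of 0.00852 to 0.234.

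Gbp2 lay in the other direction without a call. It had 22.5 and 19.2 CPM in EF, against 27.1 and 29.1 CPM in noEF, with no overlap (log2 fold change -0.43, SE 0.142, edgeR adjusted p = 0.0742; 95% interval, not adjusted, -0.73 to -0.13). Gbp7 had 710 and 687 counts in EF, against 22 and 544 counts in noEF, a 23.9-fold gap between the noEF libraries (log2 fold change 1.23, SE 1.71, edgeR adjusted p = 0.767). Without noEF 1 it was at 0.29 (edgeR adjusted p = 0.522), and without noEF 2, where noEF 1 alone stood for its group and was taken to vary like the others, at 4.86 (edgeR adjusted p = 1.64e-28). Of 9254 tested genes with a mean of at least 10 CPM, 14 (0.151%) had 1 library under 0.1 of each other library, with noEF 1 the low library in 5 and noEF 2 in 5. Gbp7 shares 12.7% of its 50-base words with other genes, Gbp3 among them, against 3.75% for Gbp3 and 2.03% for Gbp2. Irgm1, an immunity-related GTPase gene, had 6.92 and 9.31 CPM in EF, against 8.63 and 12.9 CPM in noEF, with overlap (log2 fold change -0.41, SE 0.233, edgeR adjusted p = 0.312), and was at -0.093 without noEF 2. Igtp, of the same family, was at -0.068, and 162 of its exon bases overlap Irgm2 on the same strand.

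**Figure D4:**
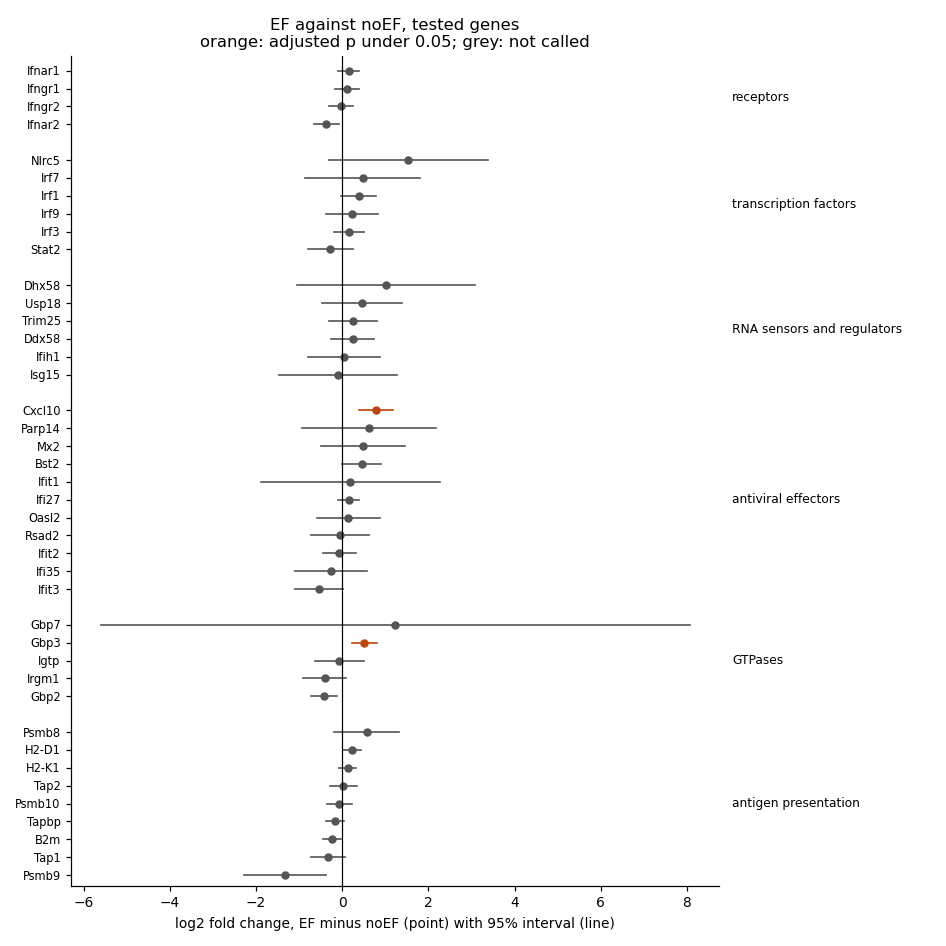
Log2 fold change, EF minus noEF (points), with unadjusted 95% intervals (lines) for the 41 tested genes by role; orange marks an adjusted p under 0.05. Cxcl10 at 0.79 and Gbp3 at 0.51 are called, Psmb9 has the lowest value at -1.33, and Gbp7 has the widest interval.

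The 9 antigen presentation genes gave 0 calls, with 4 above 0 and 5 below. H2-D1 had 70.2 and 70.6 CPM in EF, against 60.5 and 59.5 CPM in noEF, with close replicates and no overlap (log2 fold change 0.23, SE 0.0971, edgeR adjusted p = 0.159; 95% interval, not adjusted, 0.024 to 0.44). It was called with the length and GC trend removed, at 0.36 (edgeR adjusted p = 0.0170), and with library totals, at 0.32 (edgeR adjusted p = 0.0476). H2-K1 had 108 and 109 CPM in EF, against 106 and 93.3 CPM in noEF, with EF 1 and noEF 1 close (log2 fold change 0.13, SE 0.0932, edgeR adjusted p = 0.453). B2m had 243 and 273 CPM in EF, against 329 and 281 CPM in noEF. Both EF libraries were below noEF without a call (log2 fold change -0.24, SE 0.0957, edgeR adjusted p = 0.138); the direction turned with the trend removed, at 0.045 (edgeR adjusted p = 0.763), and without noEF 2 the value was -0.35 (edgeR adjusted p = 0.0189). H2-D1 and H2-K1 share 12.8% and 9.63% of their 50-base words with other class I genes, so their counts may be divided.

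Tap1, a subunit of the peptide transporter, had 11.9 and 16.1 CPM in EF, against 19.0 and 16.2 CPM in noEF, with EF 2 and noEF 2 almost equal (log2 fold change -0.33, SE 0.182, edgeR adjusted p = 0.302), and was at -0.12 without EF 1. Tap2, the other subunit, and Tapbp, which encodes tapasin, were at 0.029 and -0.16. Psmb9, an immunoproteasome subunit, had 46 and 35 counts in EF, against 82 and 109 counts in noEF. Both EF libraries were below both noEF libraries, and the difference missed the threshold (log2 fold change -1.33, SE 0.442, edgeR adjusted p = 0.0764; 95% interval, not adjusted, -2.27 to -0.38). Psmb9 and Tap1 start 226 bases apart in RefSeq on opposite strands and share 212 exon bases, which counts without strand cannot divide. Psmb8, a further immunoproteasome subunit, had 6.69 and 3.78 CPM in EF, against 2.61 and 4.43 CPM in noEF, with overlap (log2 fold change 0.57, SE 0.350, edgeR adjusted p = 0.354). The value was 0.10 without EF 1 and 1.00 without noEF 2. Psmb10, the remaining one, was at -0.066.

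The constitutive subunits that these replace had EF values below noEF, and 1 of 3 passed, beside 4.99% of all genes tested called lower. Psmb7 was lower, with 6797 and 6979 counts in EF, against 8474 and 7959 counts in noEF (log2 fold change -0.35, SE 0.0860, edgeR adjusted p = 0.0215). Its call was lost in 4 of 13 alternatives, without EF 1 (edgeR adjusted p = 0.161) or noEF 1 (0.132), with library totals (0.0594) and with a replicate block (0.0550). Psmb6 had 136 and 159.7 CPM in EF, against 221 and 169 CPM in noEF (log2 fold change -0.40, SE 0.138, edgeR adjusted p = 0.121). It was called lower in 4 of 13 alternatives, namely DESeq2 (DESeq2 adjusted p = 0.0385), no filter (edgeR adjusted p = 0.000281), without EF 2 (0.0430) and without noEF 2 (4.98e-05), and with a library left out it ranged from -0.59 (without noEF 2) to -0.19 (without noEF 1). Psmb5 had 127 and 140.1 CPM in EF, against 163 and 149.6 CPM in noEF (log2 fold change -0.23, SE 0.0899, edgeR adjusted p = 0.137), and turned to 0.15 with the length and GC trend removed.

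Among 16 further class I genes 15 were tested, 1 was higher and 2 were lower, beside 3.83% and 4.99% of all genes tested. H2-Q4, a non-classical class I gene, had 8.66 and 10.6 CPM in EF, against 5.68 and 5.50 CPM in noEF (log2 fold change 0.79, SE 0.218, edgeR adjusted p = 0.0359). Its call was lost without any single one of the 4 libraries, with adjusted p-values of 0.0514 to 0.193 in edgeR. Psme1, a subunit of the proteasome activator PA28, was lower, with 50.9 and 54.5 CPM in EF, against 77.7 and 61.7 CPM in noEF (log2 fold change -0.40, SE 0.118, edgeR adjusted p = 0.0469); 9 of 13 alternatives lost the call, library totals and limma-voom among them, and it was at -0.23 without noEF 1. Psme2, its partner, was lower, with 35.8 and 32.4 CPM in EF, against 51.7 and 44.9 CPM in noEF (log2 fold change -0.50, SE 0.124, edgeR adjusted p = 0.0218); it was lost without EF 2 (edgeR adjusted p = 0.108), without noEF 1 (0.0955) and with the length and GC trend removed (0.115; 0.174 with a replicate block as well). Of 11 class II genes 7 were tested and 0 passed in either direction.

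The lists of signal transducers and sensors and of further interferon-induced genes gave 0 calls in edgeR, beside 8.82% of all genes tested. Of 23 signal transducers and sensors found, 20 were tested, with log2 fold changes from -0.71 to 0.59 and 1 higher and 0 lower at an unadjusted p under 0.05. Of 55 further interferon-induced genes 38 were tested, with a range of -0.59 to 1.07 and 1 higher and 3 lower at that threshold, and 10 had no counts.

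Replicates of these genes lay somewhat further apart than those of other genes. The median fold between replicates was 1.18 in EF and 1.17 in noEF for the tested members, against 1.12 and 1.13 for all genes, and the members' median level was 9.45 CPM against 21.2 CPM. Parp14, which encodes an ADP-ribosyltransferase, had 62 and 31 counts in EF, against 45 and 11 counts in noEF. It was higher in replicate 1 of both groups, as were Usp18 and Isg15, while over the list 9 members were higher in replicate 1 of both groups and 5 lower, 34.1% of the 41, beside 43.7% of all genes tested.

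**Figure D5:**
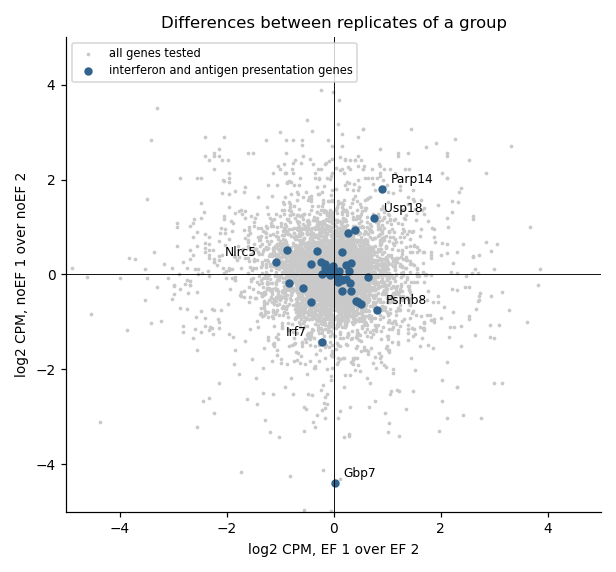
Log2 ratio of CPM (0.1 added) between replicates 1 and 2 of EF (x axis) and of noEF (y axis) for all genes tested (grey) and the 41 tested interferon and antigen presentation genes (blue). Parp14 and Usp18 were higher in replicate 1 of both groups and Gbp7 stands apart in noEF; genes beyond 5 are not drawn.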

How the data were processed

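RNA-seq of engineered neural tissue, 2 EF and 2 noEF libraries, was compared. The values that the authors deposited are unscaled whole-number counts per gene. The submitters' processing notes list HISAT2 2.0.4, StringTie 2.2.1, DESeq2 1.44.0 and GRCm38 without role. The annotation and strand setting used for counting are not given there. Per the labels' protocols, poly(A) RNA was fragmented and primed with random hexamers, with no step named that keeps the strand.

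Genes passing filterByExpr (minimum count 10, minimum total 15) were TMM-scaled and tested with edgeR 4.0.16 (R 4.3.3, robust quasi-likelihood), with Benjamini-Hochberg adjustment over 14263 genes and a threshold of 0.05. The procedure was tested on simulated data. Exon lengths, GC content, overlaps (bedtools 2.31.1) and 50-base words came from GENCODE M21, which held 22022 of 23874 identifiers. Limits for a count of 0 cover counting error only.

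Values per library were given, by rule, for called members, the 3 smallest p-values of each role, and Stat2, Irf9, Irf3, Ifnar1, Ifnar2, B2m, H2-D1, H2-K1, Tap1, Psmb8 and Nlrc5, which makes 23 members; for Psmb5, Psmb6 and Psmb7; and for called genes of the other pathway lists, with cell type markers given as counts and sums. A further gene that the rule names is not reported here. Others, such as Gbp7, Ifi27, Irf7, Isg15 and Parp14, were chosen after their values were seen. Members and lists were chosen with earlier results of these data known. Alternatives were RLE or library-total scaling, no filter or a minimum of 1 CPM in 2 libraries, limma-voom (limma 3.58.1), DESeq2 1.42.0, a replicate block, a length and GC correction (splines, 5 degrees of freedom) and each library left out.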

Additional observations from a re-analysis of the deposited data

How the results depend on the processing

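RLE scaling, both filters, DESeq2 and limma-voom kept 2 members called higher, and library totals gave 3. It was 1 with the replicate block (Cxcl10; edgeR adjusted p of Gbp3 = 0.0559), 5 with the length and GC trend removed and 1 with both, and 0 to 3 with a library left out. Members called lower were 2 with no filter (Gbp2 and Psmb9) and 0 to 1 with a library left out. Over all genes, higher calls numbered 1138 with library totals, 915 with no filter, 301 with trend removal and block, and 217 to 790 with a library left out; lower calls numbered 1203, 445 and 337 to 1065 under the last 3. The replicate block alone gave 410 higher and 568 lower; same-numbered libraries did not deviate together (correlation -0.090), so numbers were not taken as pairs. Directions turned, never past the threshold, with the trend removed, without and with the block, for B2m (0.045, 0.044) and Psmb5 (0.15, 0.15). With a library left out, they turned within the ranges of Ddx58 (-0.013 to 0.56), Ifnar1 (-0.0071 to 0.30), Irf3 (-0.056 to 0.42), Irf9 (-0.16 to 0.74) and Usp18 (-0.036 to 1.21). Of genes not called in the full data, values that 1 library moved by over 1.5 times kept their sign over ranges of 0.10 to 1.00 (Psmb8), -0.67 to -0.093 (Irgm1), -0.56 to -0.12 (Tap1), 0.23 to 0.52 (Irf1), -0.77 to -0.27 (Ifit3), -0.35 to -0.12 (B2m), 0.036 to 0.22 (H2-K1), 0.071 to 0.23 (Ifi27), 0.047 to 0.20 (Ifngr1) and 0.81 to 2.01 (Nlrc5), and Dhx58 was at 0.41 without EF 2. The cause was not tested. Of 401 recomputed values of 31 named genes 352 kept their direction and side of the threshold. Library totals moved the median log2 fold change of all genes by 0.086. Depth limits Nlrc5, Dhx58 and Ifit1, whose SEs were 0.868 to 0.976.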
